A study of Mus musculus with 6 samples.

Results

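Motile cilia beat by means of the axoneme, a cylinder of doublet microtubules around a central pair. Outer and inner dynein arms, motors on the doublets, drive the sliding, while radial spokes, the central apparatus and the nexin-dynein regulatory complex time and restrain it. Tektins and other microtubule inner proteins stiffen the doublets, and a set of cytoplasmic assembly factors folds the dyneins before they enter the cilium. The sperm tail has the same plan, with some parts made from testis relatives of the ciliary genes. Foxj1 encodes the transcription factor that switches on the motile cilium programme, and Prm1 encodes a protamine, which packs DNA in spermatids.

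The axonemal genes described here are those whose symbol begins with Dnah, Dnai, Dnaic, Dnali, Dnaaf, Cfap, Rsph, Drc, Tekt, Spef or Spag followed by a digit. There were 83 of them among 21829 genes in the table. They were divided by their likeness to Foxj1 and to Prm1 across the libraries. Symbols of this form also take in genes that are not axonemal: Spag4, Spag5, Spag7, Spag9, Spag11a and Spag11b.

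Epididymal white adipose tissue, the visceral fat beside the testis, was taken from male C57BL/6J mice on a normal diet at 20 weeks of age. The 3 libraries labelled ZFP251 KO and the 3 from wild-type (WT) littermates are called KO 1 to 3 and WT 1 to 3, and values are given in the order of these numbers. The labels give neither the allele nor the cells in which it was removed. They do not say whether a library is 1 mouse or a pool, so a p-value covers only the spread of these libraries, which may be technical. The design asks what ZFP251 does in this fat.

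Several facts of the libraries bear on every result below. Zfp251 had 6.48, 5.86 and 6.48 FPKM in KO 1 to 3 and 3.73, 3.56 and 2.95 FPKM in WT 1 to 3. Its RNA was thus higher, not lower, in the libraries labelled KO (exact permutation test, two-sided, p = 0.1, the smallest this design allows). As the allele is not given, these values cannot decide whether the labels are right. Directions below are those of libraries labelled KO, not of a measured loss of Zfp251. WT 1 stood apart from WT 2 and WT 3 in Foxj1, and WT 3 stood apart in transcript length: the median gene with a longest transcript under 1000 nt deviated in it by 0.56 from its mean on the log2(FPKM + 1) scale. FPKM (fragments scaled by transcript length and library size) summed to between 426966 and 637902 per library, and between 11814 and 12813 genes had at least 1 FPKM. The 15 adipocyte markers, Adipoq and Plin1 among them, were all present. Their sums were lower in libraries labelled KO, 29711 to 35680 FPKM, than in WT, 40688 to 76184 FPKM. In 7 of the 15 the groups did not overlap and KO was lower, against 7.71% of all genes, and the median log2 difference of the 15 was -0.43. The part of this in the results below was not tested.

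Most axonemal genes were present in WT 1 and in all 3 libraries labelled KO, and low or listed at 0 in WT 2 and WT 3. Foxj1 stood at 13.9, 0.034 and 0 FPKM in WT 1 to 3 and at 44.2, 43.2 and 20 FPKM in KO 1 to 3. Of the axonemal genes, 66, 68 and 53 of the 83 had 1 FPKM or more in KO 1 to 3. In WT 1 the number was 45, and in WT 2 and WT 3 it was 17 and 18. Over all 21829 genes the numbers were 12706, 12813 and 12492 in KO 1 to 3 and 12558, 12005 and 11814 in WT 1 to 3. In WT 2 and WT 3, 22 and 30 of the genes were listed at 0, and 19 were listed at 0 in both. WT 1 was the highest WT library in 68 of the 83, and KO 3 the lowest library labelled KO in 74. Values of 0 and these orders were not counted over all genes, so the part general to the libraries is not known.

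**Figure D1:**
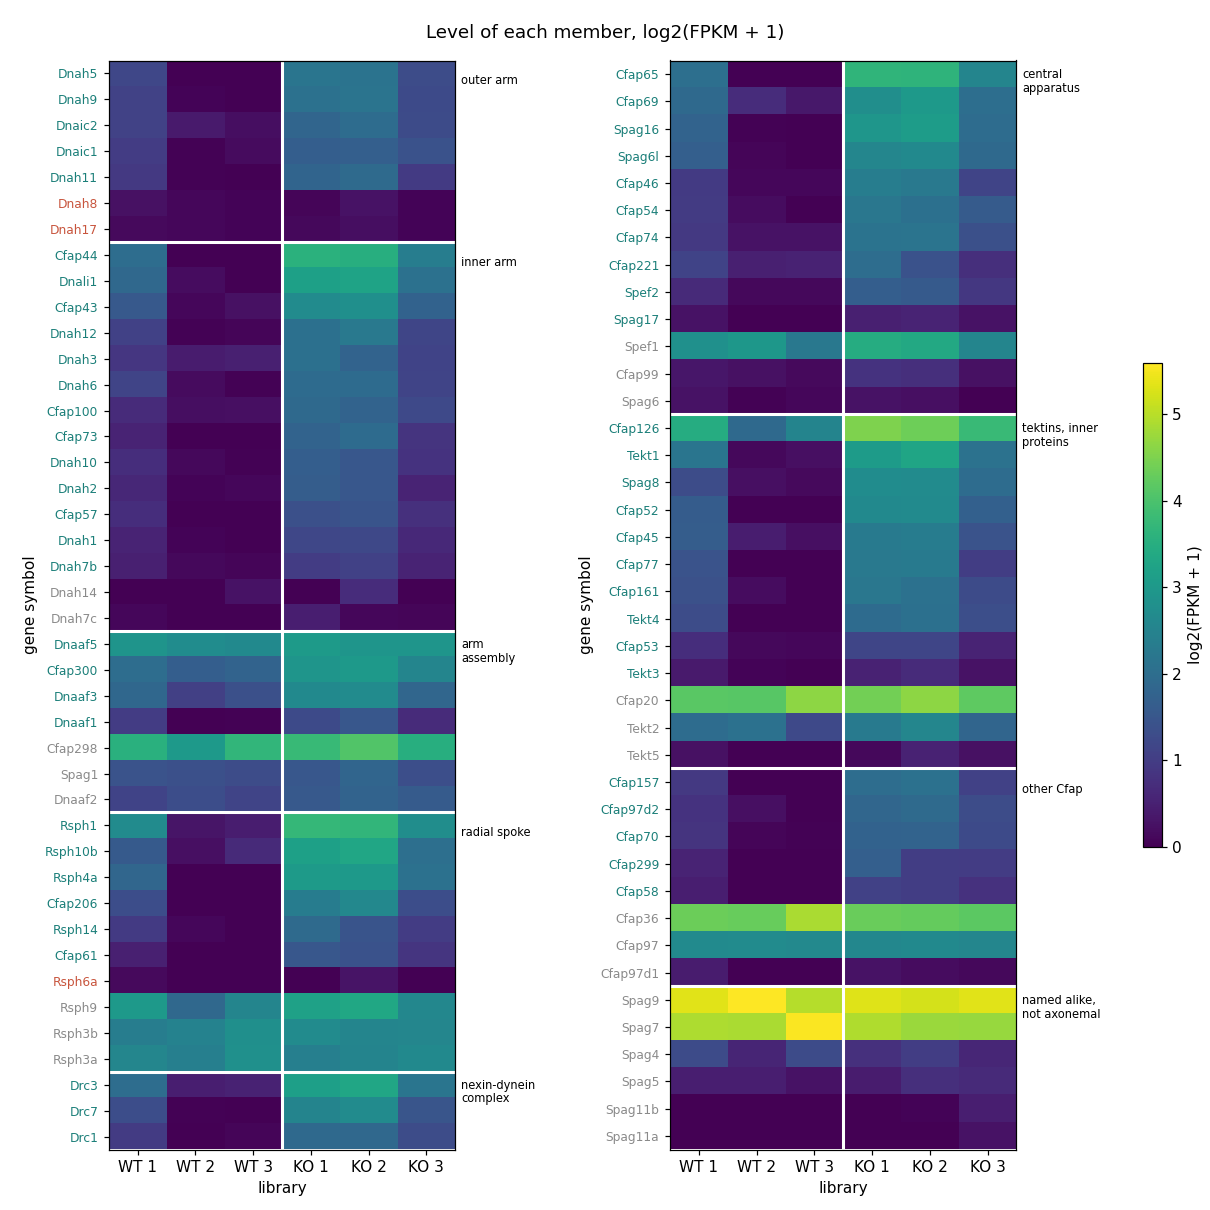
Level of 82 axonemal genes (rows, grouped by role) in the 6 libraries (columns), as log2(FPKM + 1) by colour; symbols are green for the Foxj1 class, red for the Prm1 class and grey for neither. Most rows are dark in WT 2 and WT 3 and brighter in WT 1, KO 1, KO 2 and KO 3, while rows such as Spag9, Spag7, Cfap36 and Cfap20 are bright in all 6.

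Prm1 had a different pattern from Foxj1, which allowed the genes to be divided. It stood at 39.2, 0.312 and 0.195 FPKM in WT 1 to 3 and at 3.4, 33.3 and 1.3 FPKM in KO 1 to 3. WT 1 and KO 2 were thus high in Prm1, and KO 1, which matched KO 2 in Foxj1, was not. Prm1 and Foxj1 were both low in WT 2 and WT 3. Their Pearson r over the 6 libraries was 0.664 on log2(FPKM + 1), so the division is not a sharp one. A gene was put in the Foxj1 class if its Pearson r with Foxj1 over the 6 libraries was at least 0.8 and at least 0.1 above its r with Prm1, on log2(FPKM + 1). The Prm1 class was the reverse. Genes that never reached 0.1 FPKM were not classed. These correlations chose the classes, so they carry no test, and within each class they are a description.

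The Foxj1 class held 56 genes, the Prm1 class 3, and 23 fitted neither. Dnah7a, at most 0.077 FPKM, was not classed. The Prm1 class was Dnah8 (chr17:30624354-30877365), Dnah17 (chr11:118021723-118130634) and Rsph6a (chr7:19054690-19074447), on GRCm38. In the Foxj1 class were 5 of 7 outer arm genes, 13 of 16 inner arm genes, 4 of 7 assembly factors and 6 of 10 radial spoke genes. It also held all 3 nexin-dynein regulatory genes, 10 of 13 central apparatus genes, 10 of 13 tektins and inner proteins and 5 of 8 other Cfap genes. None of the 6 genes that are named alike but are not axonemal was in it.

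Just inside the Foxj1 class was Cfap221, with r = 0.82 to Foxj1 and 0.53 to Prm1, and just outside was Cfap99 with 0.776 and 0.531. The spoke gene Rsph9 had 0.838 and 0.759, too close together to be placed. Just inside the Prm1 class was Dnah17, with 0.809 to Prm1 and 0.529 to Foxj1. Cfap97d1, Spag6 and Tekt5 lay just outside, with r to Prm1 of 0.798, 0.791 and 0.787. Without WT 1 the Prm1 class held 5 genes, as Spag1 and Tekt5 joined. Without KO 1 it also held 5, with Cfap97d1 and Spag6. With Spearman's rho in place of r, Dnah8, Dnah17 and Rsph6a all left it and Cfap97d1 was its 1 gene. At r of at least 0.9 Dnah8 alone was left.

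**Figure D2:**
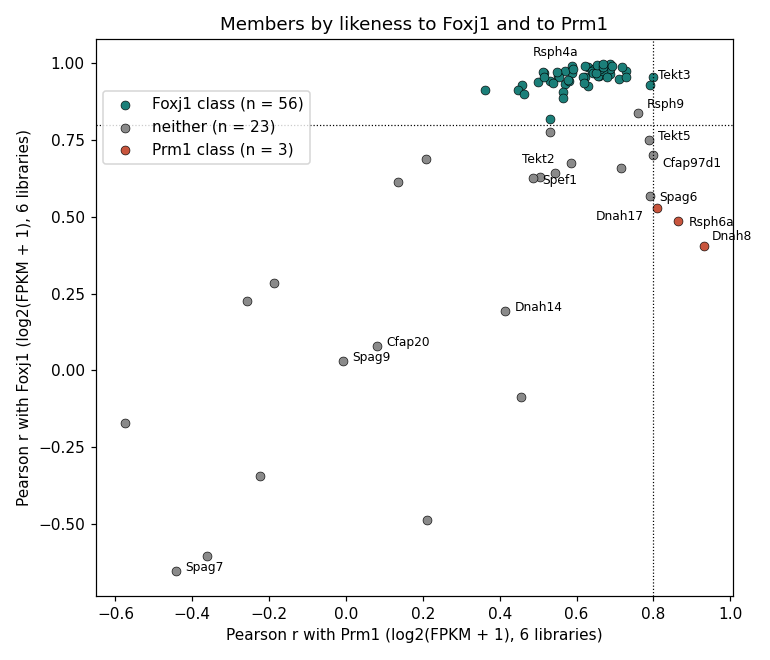
Pearson r of each classed gene with Prm1 (horizontal axis) and with Foxj1 (vertical axis) over the 6 libraries on log2(FPKM + 1); dotted lines mark 0.8. The 56 genes of the Foxj1 class lie along the top, and Dnah8, Dnah17 and Rsph6a lie to the lower right, beside Spag6, Cfap97d1 and Tekt5.

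Between the groups, 42 of the 56 axonemal genes that passed the filter (a mean of at least 1 FPKM) had higher values in the libraries labelled KO at limma's unadjusted p under 0.05, where 9.13% of 12539 genes tested did. The number with lower values at that p was 0, against 4.43% of genes tested. None passed the adjusted threshold of 0.05, and neither did any of the 12539 genes (0.0%). The smallest adjusted p among the axonemal genes was 0.223. Their median difference was 1.34 on the log2(FPKM + 1) scale, against -0.05 over all genes tested. The size rests on the scale and filter: the median was 2.88 with a pseudocount of 0.1, 0.85 with quantile normalization and 0.28 for the 12 genes at a mean of at least 5 FPKM. A gene that is near 0 in 2 WT libraries passes the filter through its high libraries, so the 27 genes under it matter too. Fitted by limma with no filter, 50 of all 83 had higher values at an unadjusted p under 0.05, where 7.55% of the 21829 genes did. In that fit 0 of the 83 passed the adjusted threshold, against 1 of all genes (0.00458%).

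The groups did not overlap in 45 of all 83 genes, each time with higher values in the libraries labelled KO, against 8.79% of the 21829 genes. Of the 56 that passed the filter, 36 did so, against 10.1% of genes that passed. The opposite was seen in 0 of the 83, against 7.71%. In the other 38 the groups overlapped. WT 1 was above KO 3 in 30 of the 83, among them 12 of the Foxj1 class, and this order was not counted over all genes.

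A single library decided whether these differences passed. Without WT 1, 32 of the 56 genes passed limma's adjusted threshold, all with higher values in the libraries labelled KO, where 3.74% of all genes tested did so. With sample weights, which give deviant libraries less say, 13 passed, against 4.08% of genes tested. The median difference was then 0.98, below the 1.34 of the unweighted fit, whereas without WT 1 it was 1.64. The weights thus did not act as leaving out WT 1 did. Leaving out any other library gave 0, and without KO 1 the smallest adjusted p over all genes was 0.716. WT 1 was the WT library high in Foxj1, so leaving it out raises the differences of genes chosen by likeness to Foxj1. The adjusted p without WT 1 given for single genes below therefore shows only how far a result rests on WT 1. In bulk tissue, fewer cells of a type and less RNA per cell cannot be told apart.

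**Figure D3:**
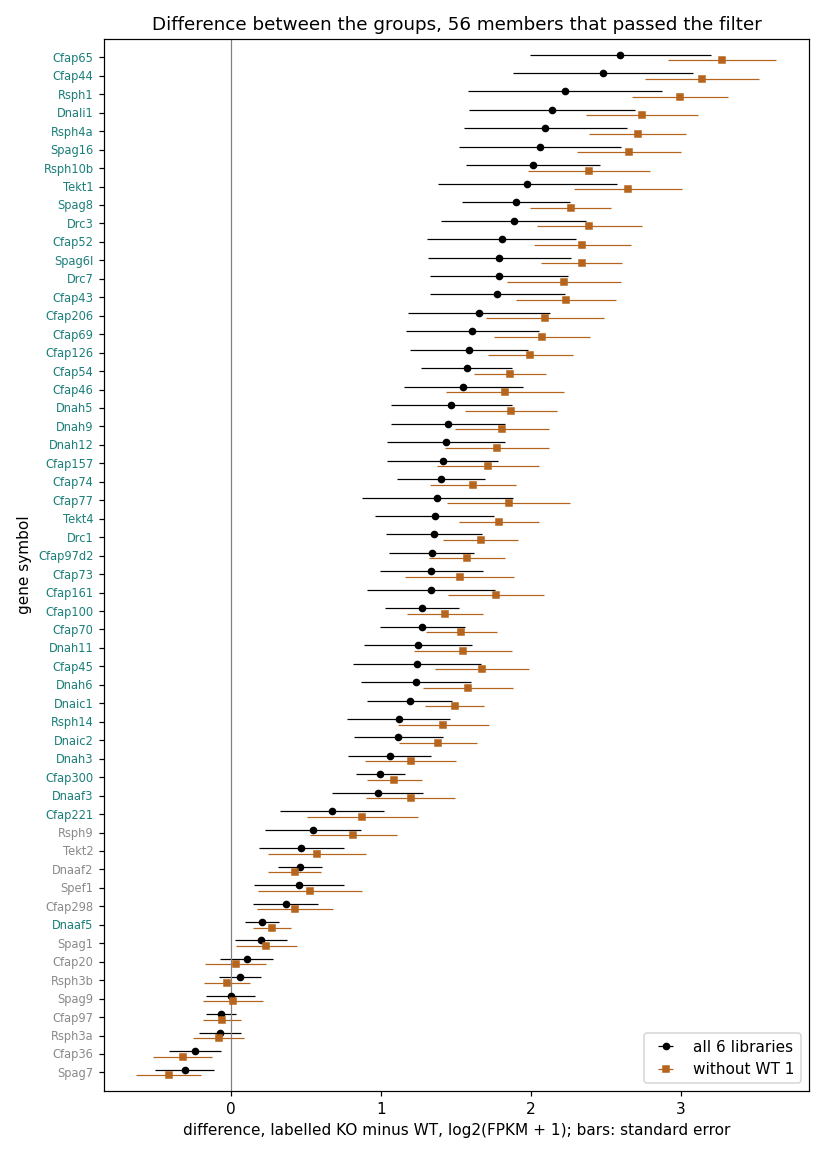
Difference between the libraries labelled KO and WT for the 56 genes that passed the filter, on the log2(FPKM + 1) scale with standard errors, for all 6 libraries (black) and without WT 1 (brown). Cfap65 and Cfap44 have the highest values in both fits, and genes of neither class (grey symbols) lie between -0.31 and 0.55 with all 6 libraries; green symbols mark the Foxj1 class.

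The outer dynein arm, the motor that sets beat frequency, was represented by its ciliary heavy chains. Dnah5, a heavy chain found along the whole cilium, had 1.29, 0 and 0 FPKM in WT 1 to 3 and 3.5, 3.38 and 1.46 FPKM in KO 1 to 3. Dnah9, the partner heavy chain of the distal cilium, had 1.14, 0.034 and 0 FPKM against 3.23, 3.44 and 1.39 FPKM. Dnah11, its proximal counterpart, had 0.898, 0.017 and 0 FPKM against 2.48, 2.79 and 0.944 FPKM. In these chains the 3 libraries labelled KO were above all WT libraries, with KO 3 just above WT 1. The log2 differences were 1.47 ± 0.40 (SE) for Dnah5, 1.45 ± 0.38 for Dnah9 and 1.24 ± 0.36 for Dnah11, and limma's adjusted p was 0.223 for each. Without WT 1 the adjusted p was 0.0306, 0.0349 and 0.0669. The intermediate chain Dnaic2, which anchors the arm, had 1.14, 0.325 and 0.162 FPKM against 2.51, 2.93 and 1.42 FPKM.

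The heavy chains of the sperm tail had another order of libraries. Dnah8, the testis relative of Dnah5, had 0.195, 0.075 and 0.033 FPKM in WT 1 to 3 and 0.049, 0.203 and 0.043 FPKM in KO 1 to 3. Its high libraries were WT 1 and KO 2, those of Prm1. Dnah17, the sperm counterpart of Dnah9 and Dnah11, had 0.099, 0.072 and 0.037 FPKM against 0.089, 0.162 and 0.031 FPKM, so the groups overlapped. Both were below the filter and were not tested. These are low values of unknown depth. Dnah17 also left the Prm1 class without WT 3, KO 2 or KO 3, and on log2(FPKM + 0.1) or untransformed FPKM.

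The inner dynein arms, which shape the bend, were led by light and tether subunits. Dnali1, an inner arm light intermediate chain, had 2.69, 0.131 and 0 FPKM in WT 1 to 3 and 7.98, 8.47 and 3.22 FPKM in KO 1 to 3. Cfap44, part of the tether of an inner arm, had 2.98, 0.009 and 0.007 FPKM against 10.9, 10.4 and 4.17 FPKM. Its partner Cfap43 had 1.94, 0.074 and 0.191 FPKM against 5.44, 5.88 and 2.4 FPKM. The log2 differences were 2.14 ± 0.56 (SE) for Dnali1, 2.48 ± 0.60 for Cfap44 and 1.77 ± 0.45 for Cfap43, each with limma's adjusted p at 0.223. Without WT 1 they were 2.74, 3.14 and 2.23, with adjusted p of 0.0179, 0.0127 and 0.0223.

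Heavy chains had lower median levels per length than the rest of the Foxj1 class in WT 1, WT 2 and the libraries labelled KO, but not in WT 3. In KO 1 the 10 heavy chains of the Foxj1 class ran from 0.994 to 3.5 FPKM with a median of 2.67 FPKM, and the 46 other genes of that class ran from 0.408 to 21.6 FPKM with a median of 3.7 FPKM. In WT 1 the medians were 0.867 and 1.45 FPKM, and in WT 3 0.0255 and 0.013 FPKM. The heavy chains have longest transcripts of 12009 to 15637 nt and the others of 921 to 9903 nt, and the part of length in these levels was not tested.

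The copies Dnah7a, Dnah7b and Dnah7c cannot be separated with confidence. Their longest transcripts were 96.8% to 97.3% identical in sequence, and how the authors shared reads between copies is not given. Dnah7b had 0.994, 1.12 and 0.469 FPKM in KO 1 to 3, while Dnah7c had 0.381, 0.076 and 0.049 FPKM. Summed over the 3 copies the level was 0.475, 0.098 and 0.073 FPKM in WT 1 to 3 and 1.42, 1.27 and 0.529 FPKM in KO 1 to 3. In the sum the 3 libraries labelled KO were above the WT libraries, as in Dnah5, Dnah9 and Dnah11.

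Dynein arm assembly factors included genes with little difference between the libraries. Cfap300, needed for arm assembly, had 3.02, 2.17 and 2.45 FPKM in WT 1 to 3 and 6.52, 6.95 and 4.82 FPKM in KO 1 to 3, means of 2.55 ± 0.431 and 6.09 ± 1.13 FPKM (SD, n = 3). Its log2 difference of 0.99 ± 0.17 (SE) had limma's adjusted p at 0.223 and at 0.0314 without WT 1. Dnaaf3 had 2.64, 1.08 and 1.56 FPKM against 5.31, 5.49 and 2.6 FPKM, so KO 3 lay just below WT 1. Dnaaf5 was nearly level, with 5.74 ± 0.557 FPKM (SD, n = 3) in WT and 6.77 ± 0.394 FPKM in the libraries labelled KO. Cfap298, also needed for arm assembly and of neither class, had 9.88 ± 2.43 and 12.9 ± 2.76 FPKM in the same order. These 4 genes were present in WT 2 and WT 3, where Foxj1 was at or near 0. Dnaaf1 was not, with 0.979, 0 and 0.016 FPKM in WT 1 to 3. The differences of the 6 assembly factors tested ran from 0.20 to 0.99, and the median of all 56 axonemal genes tested was 1.34.

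Among radial spoke genes, a pair of relatives had different orders of libraries. Rsph4a, a spoke head protein of cilia, had 2.61, 0 and 0 FPKM in WT 1 to 3 and 7.29, 7.06 and 3.22 FPKM in KO 1 to 3. Rsph6a, its testis relative, had 0.103, 0 and 0 FPKM against 0, 0.229 and 0 FPKM. Rsph6a was thus listed above 0 only in WT 1 and KO 2, the libraries high in Prm1, and its groups overlapped. Rsph1, another spoke head protein, reached 12.1, 11.9 and 5.67 FPKM in KO 1 to 3, with 5.44, 0.252 and 0.367 FPKM in WT 1 to 3. Rsph10b had 7.99, 8.94 and 3.1 FPKM against 1.98, 0.172 and 0.593 FPKM, in a gene whose exons share 325 nt with Gm42421 on the same strand. The log2 differences were 2.09 ± 0.55 (SE) for Rsph4a and 2.23 ± 0.64 for Rsph1, with limma's adjusted p at 0.223 and, without WT 1, at 0.0125 and 0.0101.

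Rsph3a, Rsph3b and Rsph9 were present in all 6 libraries. Rsph3a had between 4.29 and 5.97 FPKM in all 6 libraries, and Rsph3b between 4.18 and 5.9 FPKM. The longest transcripts of that pair were 96.6% identical, so their levels are uncertain singly. Rsph9 had 7.14, 2.7 and 4.85 FPKM in WT 1 to 3 and 8.11, 8.99 and 5.02 FPKM in KO 1 to 3.

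**Figure D4:**
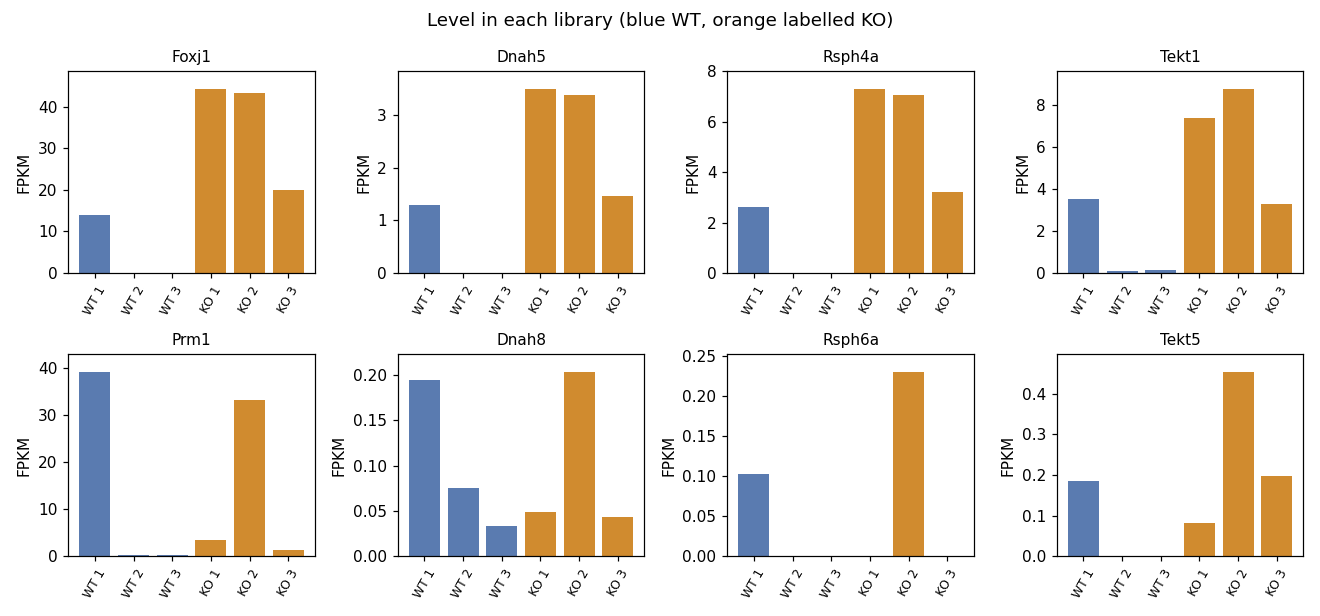
FPKM in each library for Foxj1 with the ciliary genes Dnah5, Rsph4a and Tekt1 (top row) and for Prm1 with the relatives Dnah8, Rsph6a and Tekt5 (bottom row); each panel has its own axis from 0. In the top row KO 1 and KO 2 are the tall bars, and in the bottom row KO 1 is lower than KO 2 in every panel.

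The nexin-dynein regulatory complex links neighbouring doublets. All 3 of its genes that the naming rule takes in were in the Foxj1 class. Drc3 had 3.01, 0.382 and 0.438 FPKM in WT 1 to 3 and 7.92, 8.92 and 3.52 FPKM in KO 1 to 3. Drc7 had 1.49, 0.022 and 0 FPKM against 4.74, 5.52 and 1.78 FPKM, and Drc1, a scaffold of the complex, 0.954, 0 and 0.048 FPKM against 2.76, 2.68 and 1.47 FPKM. In each the 3 libraries labelled KO were above the 3 WT libraries. The log2 differences of 1.88, 1.79 and 1.35 had limma's adjusted p at 0.223 and, without WT 1, at 0.0215, 0.0348 and 0.0229.

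In the central apparatus, which directs the plane of the beat, Cfap65 showed the largest log2 difference of the 56 genes tested. It had 3.12, 0 and 0 FPKM in WT 1 to 3 and 11.7, 11.3 and 4.82 FPKM in KO 1 to 3. The difference was 2.60 ± 0.60 (SE), with limma's adjusted p at 0.223 and at 0.0109 without WT 1. Spag16, a central pair protein, had 2.45, 0.02 and 0 FPKM against 6.65, 7.49 and 2.94 FPKM, and Cfap69 2.78, 0.624 and 0.282 FPKM against 5.82, 7.06 and 3.05 FPKM. Spag6l had 2.23, 0.061 and 0 FPKM against 4.95, 5.33 and 2.74 FPKM. Its relative Spag6, 85.2% identical over the aligned stretch, stayed at 0.217 FPKM or less in every library and had 0 FPKM in KO 3. Spef1, which bundles the central pair, was high everywhere, from 3.69 FPKM in WT 3 to 9.96 FPKM in KO 1.

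Tektins and the other microtubule inner proteins included the highest gene of the Foxj1 class. Cfap126, an inner protein also tied to basal body docking, had 9.93, 2.74 and 4.78 FPKM in WT 1 to 3 and 21.6, 19.5 and 12.7 FPKM in KO 1 to 3. The means were 5.82 ± 3.7 and 18 ± 4.65 FPKM (SD, n = 3), with a log2 difference of 1.58 ± 0.39 (SE), limma's adjusted p at 0.223 and at 0.0193 without WT 1. Tekt1 had 3.54, 0.089 and 0.166 FPKM against 7.37, 8.76 and 3.28 FPKM, with KO 3 below WT 1. Spag8, another inner protein, had 1.45, 0.179 and 0.105 FPKM against 5.54, 5.44 and 2.91 FPKM.

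Within the tektin family the libraries ranked differently by gene. Tekt3 was in the Foxj1 class but low, with 0.314, 0.036 and 0 FPKM in WT 1 to 3 and 0.449, 0.618 and 0.212 FPKM in KO 1 to 3. Its r was 0.929 to Foxj1 and 0.791 to Prm1. Tekt5, a tektin of sperm, had 0.185, 0 and 0 FPKM against 0.082, 0.452 and 0.197 FPKM and was of neither class. Tekt2 was present in all libraries, from 1.37 FPKM in WT 3 to 4.94 FPKM in KO 2.

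Of the other Cfap genes in the Foxj1 class, Cfap157, needed for the sperm tail, had 0.888, 0 and 0 FPKM in WT 1 to 3 and 2.99, 3.22 and 1.1 FPKM in KO 1 to 3. Cfap70, found at the outer arm, had 0.787, 0.049 and 0.027 FPKM against 2.36, 2.41 and 1.37 FPKM. Cfap97d2 had 0.773, 0.175 and 0 FPKM against 2.59, 2.79 and 1.46 FPKM. Limma's adjusted p was 0.223 for all 3, and without WT 1 it was 0.0553, 0.025 and 0.029 in that order.

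The level of each gene was also set against KO 1, as a description, since the class was chosen by its likeness to Foxj1. Relative to KO 1, Foxj1 stood at 97.8% in KO 2, 45.3% in KO 3 and 31.4% in WT 1. The median gene of the class stood at 103% in KO 2, 44.2% in KO 3 and 36.4% in WT 1. Between its quartiles the class ran from 92.5% to 112% in KO 2, from 38.7% to 50.8% in KO 3 and from 29.1% to 45.1% in WT 1. At the top was Dnaaf5, which was present in every library, with 90.5% in KO 3 and 88.2% in WT 1. At the bottom were Dnah2 in KO 3 with 22.3% and Cfap73 in WT 1 with 19.8%. Dnah8 stood at 414% in KO 2 and 398% in WT 1 and Dnah17 at 182% and 111%, where Prm1 stood at 979% and 1152%.

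**Figure D5:**
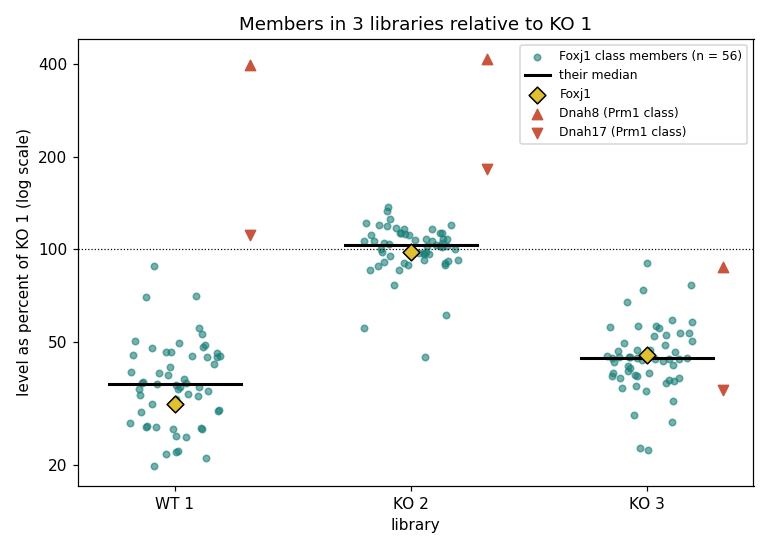
Level in WT 1, KO 2 and KO 3 as a percentage of KO 1, on a log axis, for the 56 genes of the Foxj1 class (points, with their median as a line), for Foxj1 (diamond) and for Dnah8 and Dnah17 (triangles). The medians of the class are 36.4%, 103% and 44.2%, the values of Foxj1 31.4%, 97.8% and 45.3%, and Dnah8 lies above 100% in WT 1 and KO 2.

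The 5 highest genes of neither class, which include Cfap298 above, were well above 1 FPKM in all libraries. Spag9, a scaffold of stress kinase signalling, had 39 ± 8.37 FPKM in WT and 38.2 ± 1.56 FPKM in the libraries labelled KO (SD, n = 3). Spag7 had 34.5 ± 9.95 and 26.9 ± 2.15 FPKM, Cfap36, which binds the small GTPase Arl3, 22.1 ± 5.66 and 18.2 ± 0.821 FPKM, and Cfap20, at the inner junction of doublets, 19.1 ± 4.02 and 20.5 ± 3.23 FPKM. Limma's adjusted p was 0.989 for Spag9, 0.518 for Spag7, 0.568 for Cfap36 and 0.808 for Cfap20. The high value of Spag7 and Cfap36 was that of WT 3, 46 and 28.6 FPKM, and the low value of Spag9 was also WT 3, 30.4 FPKM. The longest transcripts are 1159 nt for Spag7, 1664 nt for Cfap36 and 7340 nt for Spag9, and the part of length in this was not tested. Spag5, a mitotic spindle protein, had between 0.205 and 0.687 FPKM.

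Other genes of the axoneme, whose names the rule does not take in, were read from a list. Of 47 other axonemal genes listed, 42 were in the table and 31 passed the filter. At limma's unadjusted p under 0.05, 29 of the 31 were higher and 0 lower in libraries labelled KO, against 9.13% and 4.43% of genes tested. None passed the adjusted threshold, and without WT 1 19 passed it, against 3.74%. Their median log2 difference was 1.32. Ccdc39, part of the ruler that spaces arms and spokes, had 2.29, 0.288 and 0.197 FPKM in WT 1 to 3 and 6.1, 6.39 and 2.87 FPKM in KO 1 to 3. Zmynd10, an assembly factor, had 1.57, 0.092 and 0.03 FPKM against 3.81, 4.15 and 2 FPKM. Ropn1l, a spoke protein, was level, with 4.49 to 7.15 FPKM over the 6 libraries.

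Markers of other cell types differed between the same libraries. Of 14 tubule epithelium markers, such as Epcam and Pax8, 12 passed the filter and all 12 had higher values in libraries labelled KO at limma's unadjusted p under 0.05, where 9.13% of genes tested did. The 14 summed to 109, 16.9 and 8.69 FPKM in WT 1 to 3 and 249, 257 and 131 FPKM in KO 1 to 3. Krt19 alone made up 15.3, 11.1 and 5.71 FPKM of these sums, then 34.7, 31.7 and 19 FPKM. Of 19 multiciliated cell markers all 16 tested also had higher values in libraries labelled KO at that p, with Tmem212 and Sntn at 0 in WT 2 and WT 3. The 19 summed to 230, 141 and 160 FPKM in WT 1 to 3, then 438, 429 and 286 FPKM in KO 1 to 3. Most of the WT sums came from Tubb4b, at 109, 100 and 109 FPKM, and Tppp3, at 40.3, 35.1 and 46.3 FPKM. The 29 spermatid and sperm genes summed to 194, 15.8 and 15.6 FPKM in WT 1 to 3, then 41.4, 170 and 22 FPKM in KO 1 to 3. Odf2 alone made up 15.3, 12.7 and 13.4 FPKM of these sums, then 14.6, 16.7 and 12.3 FPKM. In WT 2 and WT 3, 13 and 16 of the 29 were listed at 0. Of 13 tested, 1 had higher values at limma's unadjusted p under 0.05, against 9.13% of genes tested. That gene, Spata18, had r = 0.990 to Foxj1 and 0.708 to Prm1. The 18 caput epididymis genes summed to 3.58, 0.089 and 1.52 FPKM in WT 1 to 3, then 5.95, 6.6 and 3.28 FPKM in KO 1 to 3. Of these sums Wfdc15b alone made up 1.38, 0 and 0 FPKM, then 4.25, 4.68 and 1.18 FPKM. Cst8 was highest in WT 1, at 1.45 FPKM. The 1 that passed the filter, Wfdc15b, had higher values in libraries labelled KO (log2 difference 1.59 ± 0.49 SE, limma's unadjusted p = 0.014, adjusted p = 0.231). Of the 18, 1 was higher there without overlap, against 8.79% of all genes. That gene was Adam7, with low values of 0.026, 0 and 0.014 FPKM in WT 1 to 3 and 0.283, 0.054 and 0.753 FPKM in KO 1 to 3. Lcn5, Lcn10, Rnase9 and Spint4 were listed at 0 in all 6 libraries. The sums of 8 mesothelial genes ran from 46.8 to 102 FPKM in WT and from 35.4 to 79 FPKM in the libraries labelled KO. The part of these cells in the differences of the axonemal genes was not tested.

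The promoters of the axonemal genes were read for the X-box, the paired site of RFX transcription factors, which act with Foxj1 in ciliated cells. The search took the letters GTNNCC followed, after any 2 bases, by GGNNAC, and also the half-site GTTGCC and the forkhead letters TGTTTAC on both strands, from 250 bases before to 50 after the start, in RefSeq sequences of GRCm38.p6. Sequences were matched by symbol for 68 of the 83 genes. The half-site may lie within a paired site. The paired letters were in 9 of these 68 genes (13.2%), against 2.16% of 27025 genes with a promoter in the table. The half-site was in 27 of 68 (39.7%), against 14.1%, and the forkhead letters in 4 of 68 (5.88%), against 4.05%. The paired letters were in 6 of 45 genes of the Foxj1 class (13.3%) and in 3 of 19 of neither class (15.8%). These matches are a description and not sites shown to be bound.

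Shown are the 250 bases before the start of 4 genes with the paired letters, in capitals: the 3 highest of the Foxj1 class whose match lies before the start, and Cfap298, the highest outside that class. Cfap126 has 3 starts in the table, and only the window shown, inside the gene, holds the paired letters. The window of Cfap298 also lies inside the gene as annotated in GENCODE vM21, and overlaps an exon of the divergent 4930534H18Rik. The windows are chr1:171122795-171123044 on the plus strand for Cfap126, chr5:139149985-139150234 on the plus strand for Dnaaf5, chr4:34730207-34730456 on the minus strand for Cfap206 and chr16:90934850-90935099 on the minus strand for Cfap298. Cfap206, a spoke protein, had 1.5, 0 and 0 FPKM in WT 1 to 3 and 4.11, 5.13 and 1.48 FPKM in KO 1 to 3. The 4 genes therefore share the letters while Cfap206 was listed at 0 in WT 2 and WT 3 and Dnaaf5 and Cfap298 were not.
Cfap126: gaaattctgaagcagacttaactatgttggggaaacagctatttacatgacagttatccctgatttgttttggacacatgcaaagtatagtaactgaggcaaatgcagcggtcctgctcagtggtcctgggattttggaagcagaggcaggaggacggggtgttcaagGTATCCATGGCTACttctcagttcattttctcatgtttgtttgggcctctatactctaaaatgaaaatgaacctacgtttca
Dnaaf5: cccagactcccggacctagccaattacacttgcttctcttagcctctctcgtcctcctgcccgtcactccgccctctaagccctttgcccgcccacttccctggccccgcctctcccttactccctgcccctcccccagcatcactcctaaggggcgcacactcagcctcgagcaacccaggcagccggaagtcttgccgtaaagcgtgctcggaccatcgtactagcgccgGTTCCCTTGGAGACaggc
Cfap206: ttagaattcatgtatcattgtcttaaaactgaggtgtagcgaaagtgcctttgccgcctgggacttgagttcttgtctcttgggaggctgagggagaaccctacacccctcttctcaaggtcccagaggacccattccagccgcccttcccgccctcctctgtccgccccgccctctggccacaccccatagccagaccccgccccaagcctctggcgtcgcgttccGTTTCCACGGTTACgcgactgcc
Cfap298: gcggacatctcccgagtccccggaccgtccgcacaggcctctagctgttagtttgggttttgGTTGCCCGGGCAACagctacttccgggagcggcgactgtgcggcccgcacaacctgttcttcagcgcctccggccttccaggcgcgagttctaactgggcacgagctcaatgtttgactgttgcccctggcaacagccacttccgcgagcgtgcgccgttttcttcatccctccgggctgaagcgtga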

How the data were processed

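RNA from epididymal fat was sequenced in 6 libraries, 3 in each group, grouped by their titles. The authors aligned reads with STAR 2.5.4 to mm10 and made the FPKM values with the Cufflinks tools, including Cuffdiff 2.2.1, per the submitters' processing notes. Their order and settings are not stated there. The deposited table has 1 column per library and a header without a unit, so FPKM was inferred from those tools and from values that are not whole. Annotation, strand setting, treatment of shared reads and depth were not given in the labels or header, so no counting interval is printed.

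The table held 21853 rows. Where symbols were repeated (24 rows), only the row of highest mean stayed. Testing used limma 3.58.1 (R 4.3.3) on log2(FPKM + 1), for genes averaging 1 FPKM or more, with a mean-variance trend and no covariate besides group. Benjamini-Hochberg adjustment ran over all genes tested, at 0.05, and the fit was tested on simulated data. Differences are KO minus WT and are understated for low genes.

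The members, gene lists and roles were chosen with earlier results of these data known. Named genes were Foxj1, Prm1 and Zfp251, the 3 highest Foxj1-like members of each role, up to 10 highest Prm1-like members, the 5 highest that were like neither, and a fixed set of relatives. Any further name was picked after values were seen. Gene positions, transcript lengths and exon overlaps came from GENCODE vM21 on GRCm38, the assembly of mm10. Relatives were aligned with blastn 2.17.0. The labels do not say whether replicate numbers pair the libraries, and the main fit did not pair them.

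Alternatives for the test were pseudocounts of 0.1 and 0.5, no filter, a filter at 5 FPKM, quantile normalization, median-ratio scaling, sample weights, a replicate block and each library left out. For the division of the members they were other correlation measures, a stricter minimum, median-ratio scaling and each library left out.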

Additional observations from a re-analysis of the deposited data

How the results depend on the processing

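No axonemal gene passed the adjusted threshold except with sample weights (13) and with a library left out, where the count ran from 0 to 32, the highest without WT 1. Over all genes 970 passed with sample weights, 1 with no filter on low values, and from 0 to 482 with a library left out, again highest without WT 1. The 42 axonemal genes higher at limma's unadjusted p under 0.05 became 3 at a mean of at least 5 FPKM, where 12 were tested. There 463 of all 9213 genes tested were higher in libraries labelled KO at that p. With a library left out the count was 37 to 44, against 691 to 1211 of all 12539 genes tested. With the replicate block the count was 45, against 1148 of 12539 genes, and 0 passed the adjusted threshold. Same-numbered libraries had correlations of 0.228, -0.2 and 0.22, and those of unlike number ran from -0.477 to 0.426. These values cannot decide whether the numbers pair the libraries. The Foxj1 class held 49 to 60 genes over the alternatives. The Prm1 class held 1 with Spearman's rho (Cfap97d1, none of the 3), 1 at r of at least 0.9 (Dnah8), 2 on log2(FPKM + 0.1) and on FPKM (without Dnah17), and 3 to 5 with a library left out. The median difference of the axonemal genes, 1.34, was 2.88 with a pseudocount of 0.1, 0.85 with quantile normalization and 0.28 with the filter at 5 FPKM. Cfap20, at 0.10, had log2 differences of -0.0084 to 0.26 with a library left out, the lowest without KO 2. Spag9, at -0.0057, had 0.045 with median-ratio scaling, 0.10 with quantile normalization and -0.17 to 0.14 with a library left out. Counting these, the values of named genes under the alternatives kept direction and side of the threshold in 378 cases, passed it in 28 and reversed in 6. Depth is unknown, so no limit from counting is given for genes listed at 0.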

Other observations

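A few genes of the same families had patterns of their own. Dnah14, an inner arm heavy chain, had 0.629 FPKM in KO 2 and 0.217 FPKM in WT 3, and between 0 and 0.014 FPKM in the other 4 libraries. Spag11b and Spag11a, defensin-like secreted proteins of the epididymis, had 0.394 and 0.201 FPKM in KO 3, and at most 0.043 FPKM elsewhere. Adam7, another gene of the caput epididymis list, was also highest in KO 3, at 0.753 FPKM against 0.283 FPKM in KO 1. Spag4, a nuclear envelope protein of spermatids, had 1.41, 0.503 and 1.42 FPKM in WT 1 to 3 and 0.702, 1.03 and 0.518 FPKM in KO 1 to 3. Cfap97d1 had 0.35 FPKM in WT 1, 0.215 FPKM in KO 1 and 0.135 FPKM in KO 2, so it did not share the excess of KO 2 seen in Dnah8 and Rsph6a. Dnah3, with 0.344 and 0.403 FPKM in WT 2 and WT 3, where the other heavy chains of the Foxj1 class had at most 0.124 FPKM, shares 1506 nt of exons with Lyrm1 on the opposite strand. Dnaaf1 shares 584 nt with Taf1c, also on the opposite strand.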
